A study of Mus musculus with 18 samples.

Results

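Total RNA was compared between GTML medulloblastoma cells given 50 nM Rapalink-1 for 3 h and GTML cells given the solvent DMSO for 3 h, with 3 libraries per treatment. These 6 RNA libraries were chosen by assay and treatment from the 18 libraries of the series, which also holds ribosome footprints and cells given 5 nM rapamycin for 3 h. The 3 rapamycin RNA libraries entered the same fit and are used below to show where the Rapalink-1 response differed. GTML cells come from brain tumours of mice in which the GLT1 promoter drives a human MYCN transgene with luciferase in hindbrain progenitors, and all 3 treatments were applied to these MYCN-overexpressing cells as a single line grown with EGF and bFGF. A small aliquot of each lysate gave the total RNA.

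mTOR is a kinase that works in 2 complexes, mTORC1 and mTORC2. mTORC1 acts on S6 kinases and on the 4E-BP repressors of the cap-binding protein eIF4E, and mTORC2 acts on AKT, which keeps FoxO transcription factors out of the nucleus. Rapamycin binds mTOR together with FKBP12 and acts mainly on mTORC1, while Rapalink-1 joins a rapamycin-like part to an inhibitor of the ATP site by a linker. mTORC1 is also known to raise the activity of the sterol factors SREBP1 and SREBP2 and of ATF4, to hold back the lysosomal factors TFEB and TFE3, and to drive translation of TOP mRNAs, which open with a run of C and T and encode ribosomal proteins and translation factors.

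The RNA libraries held 11887026 to 13300292 reads with Rapalink-1, 9397100 to 12073278 with rapamycin and 6788365 to 11210853 with DMSO, where DMSO replicate 3 was the shallowest of all. Log2 levels correlated at 0.987 to 0.993 between libraries of a treatment and at 0.977 to 0.984 between Rapalink-1 and DMSO libraries, across genes, which are not independent replicates. Of markers of the labelled tissue, 8 of 16 progenitor and glial and 10 of 21 granule lineage and neuronal ones could be tested by name. Among them the progenitor gene Nes had 57.51 ± 1.59 CPM with Rapalink-1 and 51.8 ± 1.000 CPM with DMSO (SD, n = 3 each). Of other cell types, 1 of 11 oligodendrocyte, 2 of 14 microglia and blood and 1 of 14 vascular and fibroblast markers could be tested by name, and the others were not analysed here. The 1 tested oligodendrocyte marker, Cnp, an enzyme of myelin that is not unique to it, had 13.49, 12.3 and 16.4 CPM in the Rapalink-1 libraries, against 7.45, 10.4 and 9.12 CPM in the DMSO libraries and was called higher (0.65 ± 0.15 SE, adjusted p = 0.000451), without overlap. Whether cells of that kind play a part in any result was not tested. The summed microglia and blood markers, Itgam and Hbb-bs, took 0.00988 to 0.0109% of reads with Rapalink-1 and 0.0105 to 0.0148% with DMSO. The murine Mycn row had 770.46, 792 and 843 CPM in the Rapalink-1 libraries, against 790.4, 779 and 810.3 CPM in the DMSO libraries. These values overlap (log2 fold change 0.02 ± 0.04 SE, adjusted p = 0.8), and the row may also hold reads of the human transgene. Scaled to library totals instead, the Mycn row changed by -0.12 and was called lower (adjusted p = 0.0154).

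Of 11271 genes tested, 2182 rose with Rapalink-1, or 19.4%, and 2123 fell, or 18.8%, at an adjusted p under 0.05 in the quasi-likelihood test of edgeR. The counts of gene lists below are to be read against these shares. Most changes were small, with a median size of 0.37 on the log2 scale among the called genes. A change of at least 1 on the log2 scale was reached by 135 risers, or 1.2% of genes tested, and by 71 fallers, or 0.63%, and 13 risers and 4 fallers reached 2. The values of the 3 Rapalink-1 and 3 DMSO libraries did not overlap for 46.1% of genes tested. No spike-in is recorded, so all changes are relative to the other genes. TMM scaling set the median change of all genes at 0.00 on the log2 scale, whereas scaling to library totals moved it to -0.135 and gave 1123 higher and 3731 lower genes. In bulk samples, fewer cells of a type and less RNA per cell cannot be told apart.

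The called genes were spread unevenly over RNA levels. Among the 308 genes with a mean log2 CPM over 9 (CPM is the read count scaled to library size with TMM factors), 67.5% rose and 5.84% fell, with a median change of 0.19. Between 5 and 7 the order was the other way, with 22.7% higher and 28.4% lower of 3454 genes. The most abundant genes included 58 histone genes, of which 54 rose, and 85 ribosomal protein and other TOP genes, of which 60 rose. Of the other 165 genes at that level, 94 rose and 18 fell, so under TMM scaling the tilt was not limited to those groups. Their median was 0.13, while library totals moved the median of all genes to -0.135. Counts by level were not recomputed with library totals, so the tilt of these other genes may rest on the scaling. Standard errors shrank with the level as well, with a median of 0.28 under a log2 CPM of 3 and 0.04 over 9, so a small change was called more readily in abundant RNAs.

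**Figure D1:**
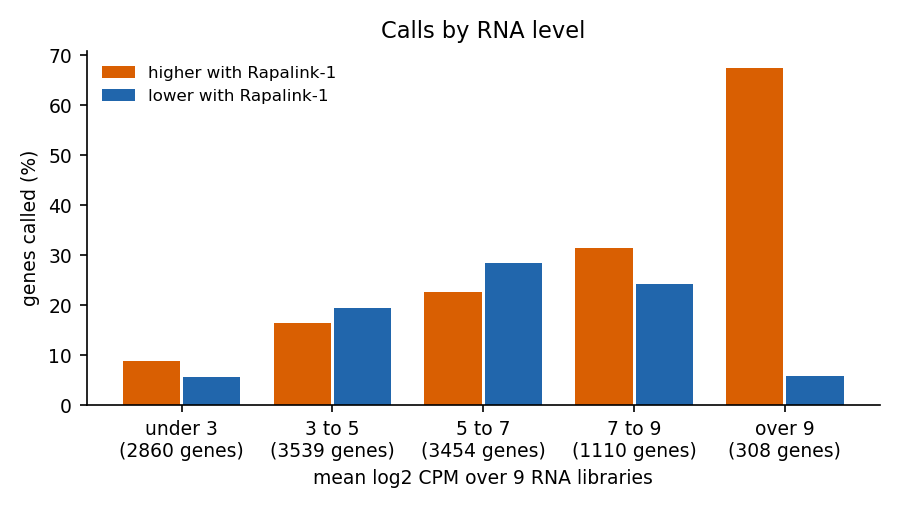
Share of genes called higher (left bar) and lower (right bar) with Rapalink-1 than with DMSO, in percent of the genes tested, by mean log2 CPM over the 9 RNA libraries. In the highest band 67.5% of genes were higher and 5.84% lower, and between 5 and 7 lower calls outnumbered higher ones. Calls are from the fit with TMM scaling.

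**Figure D2:**
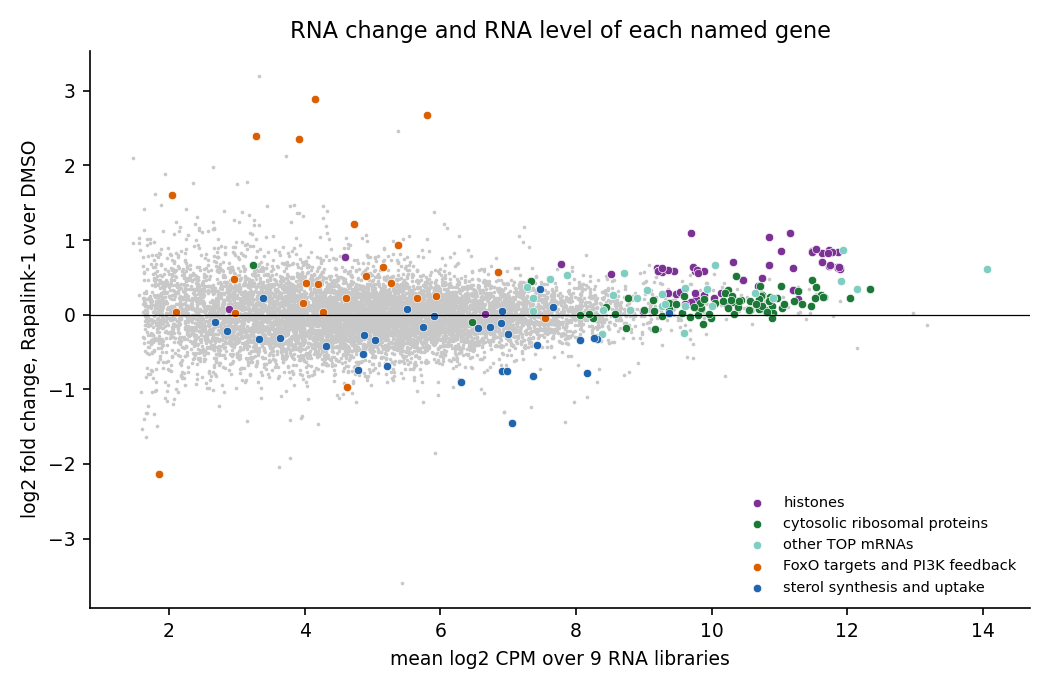
Log2 fold change of RNA, Rapalink-1 over DMSO, against mean log2 CPM over 9 RNA libraries, 1 point per gene with a symbol. Coloured points mark 5 gene groups. Histones and ribosomal proteins sit at the right and mostly above 0, FoxO targets hold several of the largest rises, and most sterol genes lie below 0. The lowest point, at -3.59, is Gm20594, an uncalled gene with 952 CPM in DMSO replicate 3 and at most 32.9 CPM in the other DMSO libraries, which changed by 0.34 without that library.

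Several of the largest rises belonged to targets of FoxO factors. Ccng2, the unconventional cyclin G2 that slows the cell cycle, had 39.98, 39.97 and 42.6 CPM in the Rapalink-1 libraries, against 5.47, 5.40 and 5.70 CPM in the DMSO libraries. Each Rapalink-1 value lay far above each DMSO value, a log2 fold change of 2.89 ± 0.12 (SE) with adjusted p = 1.34e-23. Klhl24, a substrate adaptor of a cullin ubiquitin ligase, had 118, 115 and 109.6 CPM in the Rapalink-1 libraries, against 18.48, 16.6 and 18.53 CPM in the DMSO libraries, again without overlap (2.68 ± 0.07 SE, adjusted p = 2.85e-30). Among genes of lower abundance Fbxo32, the muscle atrophy ubiquitin ligase also called atrogin-1, had 18.7, 20.4 and 19.49 CPM in the Rapalink-1 libraries, against 3.499, 2.61 and 5.70 CPM in the DMSO libraries. Txnip, the thioredoxin-interacting protein that limits glucose uptake, had 40.6, 39.2 and 38.2 CPM in the Rapalink-1 libraries, against 6.999, 7.93 and 8.27 CPM in the DMSO libraries. Both were higher in every Rapalink-1 library than in any DMSO library, by 2.39 ± 0.17 (SE, adjusted p = 2.53e-15) for Fbxo32 and by 2.36 ± 0.12 (SE, adjusted p = 5.17e-20) for Txnip on the log2 scale.

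Of 34 listed FoxO targets and PI3K feedback genes, 24 were tested and 10 were not analysed here. Of the 24, 15 rose and 2 fell, against 19.4% and 18.8% of all genes tested, and the median change was 0.43, against 0.00 for all genes. The rises included the factor itself, with Foxo3 at 40.55 ± 0.907 CPM with Rapalink-1 and 17.3 ± 1.28 CPM with DMSO (log2 fold change 1.22), while Foxo4 changed by 0.16 without passing the test. With library totals 11 rose and 3 fell. In the group of insulin receptors and adaptors, which also held the pseudokinase Trib3, 5 of 7 tested rose and 1, Trib3, fell. Irs2, the adaptor that links the insulin receptor to PI3K, had 52.3, 52.7 and 53.4 CPM in the Rapalink-1 libraries, against 25.9, 29.54 and 27.51 CPM in the DMSO libraries, with no overlap (0.93 ± 0.08 SE, adjusted p = 2.73e-12). Insr, the insulin receptor, changed by 0.43, Pik3ca, the catalytic subunit of PI3K, by 0.57, and Pink1, the kinase that marks damaged mitochondria, by 0.64 on the log2 scale, all past the test. Bbc3, which encodes the cell death protein PUMA, averaged 7.67 ± 0.289 CPM with Rapalink-1 and 2.43 ± 0.626 CPM with DMSO (1.61 ± 0.23 SE, adjusted p = 2.43e-07). The 2 members that fell were Bnip3 at -0.97 and Trib3 at -2.13, which are also targets of hypoxia factors and of ATF4.

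Promoters were searched for the forkhead motif GTAAACA, letters that FoxO factors are known to prefer. The windows run from 250 bases before to 50 bases after the annotated start (RefSeq, GRCm38.p6), and both strands were searched. The motif was in 14 of 81 windows of genes that rose by at least 1, or 17.3%, in 0 of 56 windows of genes that fell by at least 1, and in 2.45% of the 9753 windows of all genes tested with a symbol. Of the 84 such risers with a symbol 62 had a window, and of the 48 such fallers 38. A match is a description of the letters and does not show binding. Ccng2, Klhl24, Fbxo32, Foxo3 and Pcdh8 were not among the genes with a match, and genes without a window were not searched. The 3 windows below are shown because they hold the motif and their genes were among the largest rises, with the motif in capitals. They lie at chr12:31950196-31950495, minus strand for Hbp1, at chr3:96557707-96558006, plus strand for Txnip and at chr10:18234932-18235231, minus strand for Ccdc28a.
Hbp1: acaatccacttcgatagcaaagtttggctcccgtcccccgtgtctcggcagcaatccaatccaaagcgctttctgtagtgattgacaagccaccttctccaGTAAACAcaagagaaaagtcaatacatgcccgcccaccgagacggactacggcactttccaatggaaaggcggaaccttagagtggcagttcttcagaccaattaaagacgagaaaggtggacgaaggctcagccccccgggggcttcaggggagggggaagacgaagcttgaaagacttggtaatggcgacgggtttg
Txnip: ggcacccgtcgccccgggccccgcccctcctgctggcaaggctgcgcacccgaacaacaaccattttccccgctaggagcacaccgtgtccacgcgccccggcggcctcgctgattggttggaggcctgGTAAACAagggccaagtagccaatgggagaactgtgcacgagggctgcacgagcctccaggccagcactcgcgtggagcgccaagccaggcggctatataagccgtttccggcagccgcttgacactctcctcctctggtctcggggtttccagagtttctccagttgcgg
Ccdc28a: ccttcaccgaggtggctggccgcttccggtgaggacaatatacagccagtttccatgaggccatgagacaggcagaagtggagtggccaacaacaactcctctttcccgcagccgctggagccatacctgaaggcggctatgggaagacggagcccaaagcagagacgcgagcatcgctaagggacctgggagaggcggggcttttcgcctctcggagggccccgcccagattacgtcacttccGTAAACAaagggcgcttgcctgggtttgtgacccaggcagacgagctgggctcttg
The motif begins 149 bases before the start of Hbp1, 121 bases before that of Txnip and 6 bases before that of Ccdc28a.

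Hbp1, an HMG-box repressor that holds cells before S phase, had 83.7, 87.7 and 84.7 CPM in the Rapalink-1 libraries, against 14.98, 14.46 and 17.8 CPM in the DMSO libraries, a log2 fold change of 2.46 ± 0.08 (SE, adjusted p = 1.20e-26). Ccdc28a was near the low end of the levels tested, at 5.64 ± 0.494 CPM with Rapalink-1 and 1.25 ± 0.511 CPM with DMSO, and rose by 2.10 on the log2 scale. Other strong rises without overlap were found in genes of several kinds. Pcdh8, a protocadherin, gave the largest called rise among genes with a symbol, with 36.50, 32.99 and 36.6 CPM in the Rapalink-1 libraries, against 3.86, 4.88 and 2.28 CPM in the DMSO libraries (3.20 ± 0.15 SE, adjusted p = 3.82e-21). Coq8a, an atypical kinase needed for coenzyme Q synthesis, changed by 2.12, Pim1, a kinase that promotes survival, by 1.46, and Sun2, a protein of the inner nuclear membrane, by 1.38. Fbxl20, an F-box protein, changed by 1.38, Dync1h1, the heavy chain of cytoplasmic dynein, by 1.17, Bckdha, a subunit of the branched-chain keto acid dehydrogenase, by 1.16, and Heca by 1.19. Both Ccpg1 and Wdr45 act in autophagy, Ccpg1, a receptor for breakdown of the endoplasmic reticulum, at 1.30 and Wdr45 at 1.10.

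**Figure D3:**
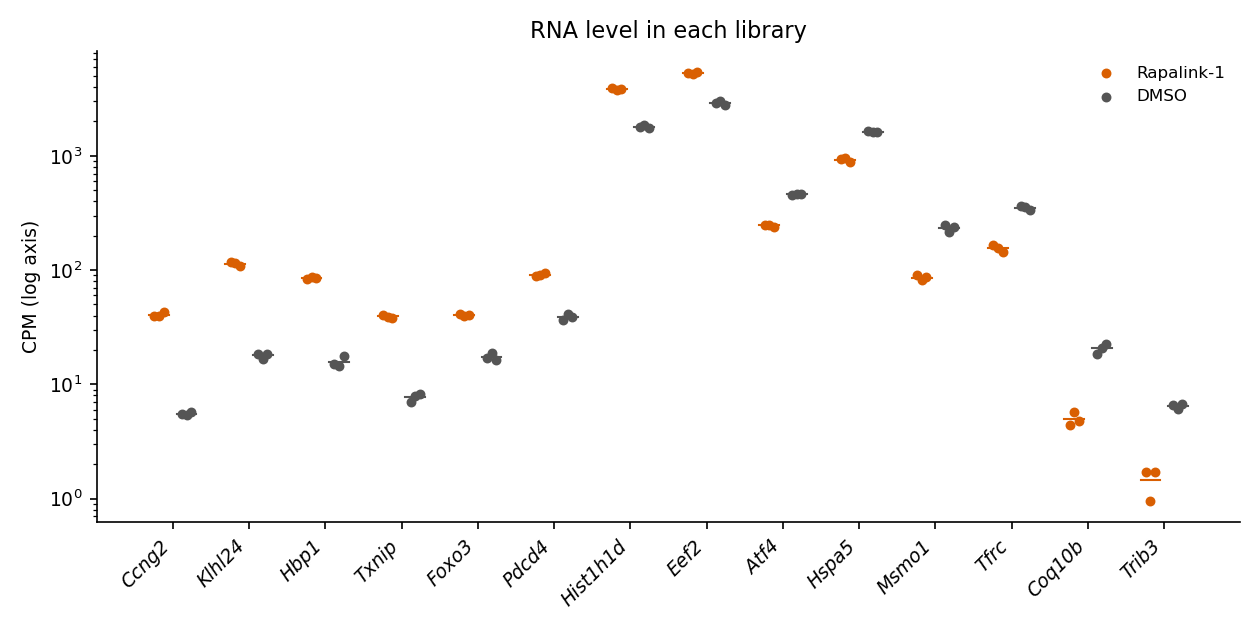
CPM of 14 leading genes in each of the 3 Rapalink-1 libraries (left of each pair) and 3 DMSO libraries (right), on a log axis, with a line at the mean. In each of the 14 genes the 2 groups of points do not overlap. Ccng2 lies near 40 CPM with Rapalink-1 and under 6 CPM with DMSO, and Msmo1 and Hspa5 lie lower with Rapalink-1.

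Most genes of sterol synthesis fell. Of 32 listed, all were tested, 19 fell and 1 rose. The median change was -0.32. None of the 20 enzymes rose and 15 fell. The later enzymes, from squalene to cholesterol, fell in 10 of 12 cases, with a median of -0.47, and the earlier ones, from acetoacetyl-CoA to farnesyl diphosphate, in 5 of 8, with a median of -0.25. Msmo1, the sterol C4-methyl oxidase, had 89.97, 81.1 and 86.3 CPM in the Rapalink-1 libraries, against 249, 216 and 238 CPM in the DMSO libraries. Every Rapalink-1 value was under every DMSO value (-1.45 ± 0.06 SE, adjusted p = 6.07e-24). Squalene epoxidase Sqle changed by -0.82, Hmgcs1, which makes HMG-CoA, by -0.78, and isomerase Idi1 by -0.75. Fdps, the farnesyl diphosphate synthase, averaged 702 ± 19.96 CPM with Rapalink-1 and 694 ± 17.97 CPM with DMSO and did not pass the test (adjusted p = 0.781). With library totals Fdps changed by -0.12 and was called lower (adjusted p = 0.0148).

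Regulators and uptake genes gave 1 higher and 4 lower of 12. Insig1, which holds SREBP factors in the endoplasmic reticulum, changed by -0.32. Srebf1, the gene of SREBP1, was the 1 riser of the list at 213 ± 4.51 CPM with Rapalink-1 and 168 ± 3.10 CPM with DMSO (0.34 ± 0.05 SE, adjusted p = 3.53e-07), while Srebf2 changed by -0.18 (adjusted p = 0.0212) and missed the test without DMSO replicate 3 (adjusted p = 0.0851), Rapalink-1 replicate 2 (adjusted p = 0.123) or Rapalink-1 replicate 3 (adjusted p = 0.0649). The sterol element TCACNCCAC, the site SREBP factors are known to bind, was in 1 of 31 windows of the list, 3.23%, and in 1.17% of those of all genes tested with a symbol. That window belongs to Hmgcs1 (chr13:119690101-119690400, plus strand) and is shown because the element lies 137 bases before the start of a gene that fell, with the element in capitals.
Hmgcs1: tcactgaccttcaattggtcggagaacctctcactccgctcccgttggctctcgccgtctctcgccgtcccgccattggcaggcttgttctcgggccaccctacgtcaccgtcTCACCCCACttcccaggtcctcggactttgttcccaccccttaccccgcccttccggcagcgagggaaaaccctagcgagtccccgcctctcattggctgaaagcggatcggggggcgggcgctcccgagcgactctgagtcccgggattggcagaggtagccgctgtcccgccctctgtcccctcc

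Fatty acid genes leaned the same way, and 2 sterol exporters rose. Of 12 fatty acid synthesis genes tested 7 fell and 2 rose (median -0.19). The desaturase Scd2 had 238, 234 and 232 CPM in the Rapalink-1 libraries, against 377, 384 and 407 CPM in the DMSO libraries, without overlap (-0.73 ± 0.05 SE, adjusted p = 2.94e-17), and its relative Scd1 changed by -0.71. Fasn, the fatty acid synthase, changed by -0.39 and Acaca, which makes malonyl-CoA, by -0.28. The exporters Abca1 and Abcg1, targets of the oxysterol receptor LXR, were low and rose, with Abca1 at 7.35 ± 0.956 CPM with Rapalink-1 and 3.33 ± 0.298 CPM with DMSO and Abcg1 at 9.29 ± 0.742 CPM with Rapalink-1 and 4.08 ± 1.68 CPM with DMSO. Rnf145, a ubiquitin ligase of the endoplasmic reticulum that acts on sterol enzymes, averaged 39.4 ± 0.543 CPM with Rapalink-1 and 83.1 ± 4.26 CPM with DMSO (-1.08 ± 0.07 SE, adjusted p = 2.00e-17).

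Most of the ATF4 group of factors and feedback targets fell. Atf4, the factor that switches on amino acid supply, had 248, 249.96 and 241 CPM in the Rapalink-1 libraries, against 455, 464 and 464 CPM in the DMSO libraries, close within each group and far apart between them (-0.90 ± 0.05 SE, adjusted p = 1.27e-20). Of 9 factors and feedback targets tested 7 fell and 0 rose (median -0.57). Trib3, a pseudokinase that restrains AKT and ATF4, had 1.70, 0.96 and 1.71 CPM in the Rapalink-1 libraries, against 6.55, 6.10 and 6.70 CPM in the DMSO libraries (-2.13 ± 0.26 SE, adjusted p = 5.81e-09). Sesn2, the leucine sensor upstream of mTORC1, averaged 4.34 ± 0.349 CPM with Rapalink-1 and 10.2 ± 0.668 CPM with DMSO and changed by -1.22. By comparison 8 of 13 tRNA synthetases rose and 2 fell (median 0.16), led by Eprs at 0.43 and Vars at 0.38. Among 15 genes of serine, glycine and folate supply 5 rose and 1 fell, with Phgdh, the first enzyme of serine synthesis, at 0.33. Scaled to library totals, the synthetases gave 4 higher and 3 lower and the serine group 2 higher and 5 lower, while the feedback targets gave 0 higher and 8 lower.

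Chaperones of the endoplasmic reticulum mostly fell, and those of the cytosol and mitochondria moved both ways. In the endoplasmic reticulum 12 of 15 fell and 1 rose (median -0.41). Hspa5, the BiP chaperone of that compartment, had 937, 950.3 and 883 CPM in the Rapalink-1 libraries, against 1652, 1632 and 1612 CPM in the DMSO libraries (-0.82 ± 0.04 SE, adjusted p = 4.31e-21). Manf, a secreted stress protein, had 197, 198 and 187 CPM in the Rapalink-1 libraries, against 302, 330.2 and 298 CPM in the DMSO libraries (-0.67 ± 0.05 SE, adjusted p = 2.60e-15). Neither gene had overlapping groups. Xbp1, the factor of the unfolded protein response, changed by -0.57 and Herpud1, which serves breakdown of misfolded proteins, by -0.54. In the cytosol and mitochondria 11 of 21 rose and 6 fell, against 8 and 9 with library totals. There all 7 subunits of the folding ring CCT that were tested rose, with a median of 0.26 (0.12 with library totals, where 5 rose), and Hsp90ab1 had 2156 ± 37.1 CPM with Rapalink-1 and 1555 ± 90.48 CPM with DMSO (0.47). Of 7 HSP70, HSP40 and heat shock genes, a subset picked by name, 5 fell and 0 rose. Among them were Hspa8 at -0.45, Dnaja1 at -0.50 and Dnajb1 at -0.72.

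The CCAAT box, a letter run bound by NF-Y and part of the known stress element of such genes, was in 12 of 13 windows of the endoplasmic reticulum chaperones, 92.3%, and in 38.7% of those of all genes tested with a symbol. Its share was also high in the sterol (67.7%), DNA replication (60.0%) and FoxO (56.5%) lists. In the lysosome, ribosomal protein and other TOP lists it was 28.2 to 30.9%. The Hspa5 window (chr2:34771840-34772139, plus strand) held 4 CCAAT boxes on either strand, in capitals, and is shown as the chaperone with the largest fall.
Hspa5: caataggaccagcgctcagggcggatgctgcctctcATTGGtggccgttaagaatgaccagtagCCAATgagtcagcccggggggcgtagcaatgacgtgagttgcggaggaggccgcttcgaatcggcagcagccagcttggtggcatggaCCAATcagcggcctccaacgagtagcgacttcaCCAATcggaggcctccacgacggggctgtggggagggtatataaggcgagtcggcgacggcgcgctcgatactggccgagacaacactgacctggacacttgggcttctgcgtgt

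Nearly all histone RNAs rose. Histones package DNA, and their replication-dependent genes are expressed in S phase. Of 64 histone genes tested 57 rose and 0 fell, and the median rise was 0.59 on the log2 scale. Together their rows took 14.01 ± 0.53% of reads with Rapalink-1 and 9.89 ± 0.55% with DMSO (SD, n = 3 each), the lowest Rapalink-1 value being 13.4% and the highest DMSO value 10.5%. Many of these rows have near-identical copies, 25 were marked as uncertain because their counts ran together with those of another gene, and a read may have been counted for several of them. Scaled to library totals, 50 rose and 0 fell.

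Linker histones H1, whose sequences differ more, gave the clearest values. Hist1h1d had 3954, 3771 and 3837 CPM in the Rapalink-1 libraries, against 1796, 1857 and 1764 CPM in the DMSO libraries (1.09 ± 0.04 SE, adjusted p = 3.47e-26). Hist1h1c had 3006, 2878 and 3043 CPM in the Rapalink-1 libraries, against 1424, 1469.50 and 1431 CPM in the DMSO libraries (1.05 ± 0.04 SE, adjusted p = 2.37e-25). The Rapalink-1 and DMSO values lay far apart for both genes. All 6 H1 genes rose, with a median of 0.78, as did all 12 H3 genes, with a median of 0.84, and all 13 H4 genes, with a median of 0.63. In H2A 13 of 18 rose, with a median of 0.58. H2B stood lower, with 13 of 15 risers but a median of 0.21 and a highest value of 0.30, under the lowest H1, H3 or H4 value of 0.46. Hist4h4, an H4 gene outside the clusters, had 1510.2, 1389.7 and 1356 CPM in the Rapalink-1 libraries, against 639, 744 and 609 CPM in the DMSO libraries (1.09 ± 0.06 SE). The 64 listed genes were split by type of histone and not by dependence on replication. The replication-independent variants H3f3b and H2afz were looked up after the histone values were seen. H3f3b changed by 0.26 (adjusted p = 3.49e-06) and H2afz by -0.33 (adjusted p = 4.93e-09). Slbp, which binds the stem-loop of histone mRNAs and was also looked up afterwards, averaged 139 ± 2.91 CPM with Rapalink-1 and 119 ± 1.43 CPM with DMSO (0.22, or 0.08 and not called with library totals).

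RNAs of the TOP class that passed the test were higher, by small amounts. Of 79 cytosolic ribosomal protein genes 48 rose and 0 fell (median 0.15), and of 27 other TOP genes 22 rose and 0 fell (median 0.28). Over a mean log2 CPM of 9, 70.6% of 85 ribosomal protein and other TOP genes rose and 0 fell (median 0.18). The 165 genes at that level outside the histone and TOP groups rose in 57.0% of cases and fell in 10.9% (median 0.13). Small rises were therefore common among abundant RNAs and not limited to the TOP class. With library totals the ribosomal proteins gave 18 higher and 14 lower, with a median of 0.01, and the other TOP genes 13 higher and 0 lower, with a median of 0.14. Ribosomal proteins took 11.6 ± 0.12% of reads with Rapalink-1 and 11.2 ± 0.11% with DMSO, and the other TOP genes took 4.98 ± 0.03% with Rapalink-1 and 3.95 ± 0.05% with DMSO (SD, n = 3 each). Without DMSO replicate 2, 4 ribosomal protein genes and 1 other TOP gene were called lower.

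Elongation and initiation factors had the larger changes of the other TOP genes, with medians of 0.29 and 0.33. Eef2, which moves the ribosome along the mRNA, had 5309.50, 5238 and 5404 CPM in the Rapalink-1 libraries, against 2894, 3046 and 2804 CPM in the DMSO libraries (0.87 ± 0.04 SE, adjusted p = 8.68e-23). Eef1a1, which brings tRNAs to the ribosome, had 21719, 21945 and 21925 CPM in the Rapalink-1 libraries, against 14148, 14860.00 and 14078 CPM in the DMSO libraries (0.61 ± 0.03 SE, adjusted p = 1.29e-18). Both groups of 3 lay apart for both genes, and both stayed called higher with library totals. Eif4b, a helper of the helicase eIF4A, averaged 1362 ± 3.05 CPM with Rapalink-1 and 862 ± 31.4 CPM with DMSO (0.66), and Eif4a2, a form of that helicase, 559.7 ± 18.4 CPM with Rapalink-1 and 382 ± 17.2 CPM with DMSO (0.55). All 5 elongation factors and 8 of 9 initiation factors tested rose. Among ribosomal proteins Rpl10a changed by 0.52, Rpl3 by 0.46 and Rps4x by 0.38.

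A run of at least 5 C or T that opens with C and covers the annotated start was found in 21 of 68 windows of ribosomal protein genes, 30.9%, in 7 of 20 windows of other TOP genes, 35.0%, and in 7.7% of windows of all genes tested with a symbol. A start without the run says only that these letters are not in this window. These 5 starts are shown from 10 bases before to 20 bases after position 1 of the window's transcript, with the run in capitals, for 4 genes that passed the test and for Rpl14, which did not. They lie at chr11:48800350-48800379, plus strand (Rack1), chr7:108934405-108934434, plus strand (Eif3f), chr14:18270967-18270996, minus strand (Rpl15), chr4:86857348-86857377, minus strand (Rps6) and chr9:120571507-120571536, plus strand (Rpl14).
Rack1: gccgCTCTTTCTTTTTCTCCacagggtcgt
Eif3f: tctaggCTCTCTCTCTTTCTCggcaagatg
Rpl15: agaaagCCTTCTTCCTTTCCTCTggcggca
Rps6: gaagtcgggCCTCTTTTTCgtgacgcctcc
Rpl14: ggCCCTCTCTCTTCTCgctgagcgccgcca
Rack1, a protein of the small subunit that docks kinases, had 4753, 4517 and 4594 CPM in the Rapalink-1 libraries, against 3254, 3758 and 3117 CPM in the DMSO libraries (0.45 ± 0.05 SE). The initiation factor subunit Eif3f changed by 0.37, Rpl15 by 0.33, and Rps6, the S6 protein that S6 kinases act on, by 0.22, all past the test, although Rps6 changed by 0.09 with library totals and did not pass then. Rpl14, with a run of 14 letters, changed by 0.02 (adjusted p = 0.793). With library totals Rpl14 changed by -0.12 and was called lower (adjusted p = 0.0175). Rack1, Eif3f, Rps6 and Rpl14 were chosen for their starts after their values were seen.

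**Figure D4:**
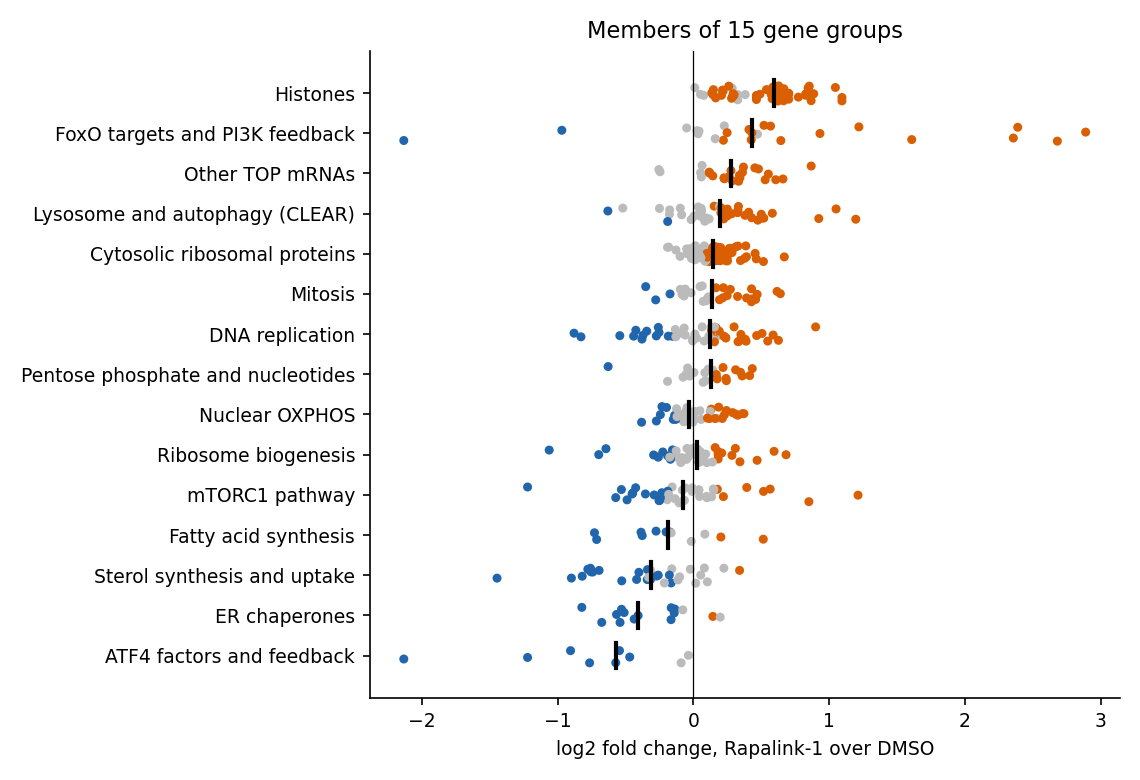
Log2 fold change, Rapalink-1 over DMSO, of each tested member of 15 gene groups, 1 point per gene, orange where called higher, blue where called lower and grey otherwise. Black bars are medians, which run from 0.59 in histones to -0.57 in ATF4 factors and feedback targets.

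Components of the mTOR pathway moved in both directions, with 7 of 42 tested higher and 15 lower and a median of -0.08. Mtor itself had 53.6, 53.50 and 56.7 CPM in the Rapalink-1 libraries, against 54.4, 56.1 and 47.8 CPM in the DMSO libraries, which overlap (0.04 ± 0.07 SE, adjusted p = 0.702). Pdcd4, which blocks eIF4A until S6 kinase marks it for breakdown, had 88.03, 89.9 and 93.8 CPM in the Rapalink-1 libraries, against 36.6, 41.6 and 38.9 CPM in the DMSO libraries (1.21 ± 0.07 SE, adjusted p = 5.92e-19). Flcn, which acts with Fnip1 on the Rag GTPases that bring mTORC1 to lysosomes, had 81.49, 84.7 and 81.00 CPM in the Rapalink-1 libraries, against 46.3, 48.8 and 41.1 CPM in the DMSO libraries (0.85 ± 0.07 SE, adjusted p = 3.50e-13). Fnip1 changed by 0.57, and none of these 3 risers had overlapping groups. Lower were Rps6kb1, the S6 kinase, at -0.43, Larp1, the TOP mRNA binder, at -0.35, the cap-binding Eif4e at -0.25 and Mapkap1, a subunit of mTORC2, at -0.45.

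Lysosome and autophagy genes leaned higher. Of 42 tested 22 rose and 2 fell, and the median change was 0.20. With library totals the counts were 10 higher and 6 lower. Nbr1, a receptor that carries cargo into autophagosomes, had 189.8, 201 and 205 CPM in the Rapalink-1 libraries, against 101, 91.05 and 94.8 CPM in the DMSO libraries (1.05 ± 0.06 SE, adjusted p = 1.80e-19). Sqstm1, the related receptor p62, had 248, 234 and 243 CPM in the Rapalink-1 libraries, against 176, 185 and 160.1 CPM in the DMSO libraries (0.47 ± 0.05 SE, adjusted p = 1.62e-09). Atg14, a subunit of the kinase complex that starts autophagosomes, averaged 12.7 ± 0.787 CPM with Rapalink-1 and 5.53 ± 0.286 CPM with DMSO (1.20). Of 14 lysosomal enzymes and membrane proteins 10 rose and 0 fell, against 3 and 1 with library totals, led by Naglu, which breaks down heparan sulfate, at 14.4 ± 1.16 CPM with Rapalink-1 and 7.44 ± 1.51 CPM with DMSO, and Psap, the precursor of sphingolipid activators, at 0.41. Of 8 proton pump subunits 3 rose and 1 fell. The E-box CACGTG, which holds the core letters of the TFEB site, was in 10 of 39 windows of the list, 25.6%, and in 10.6% of those of all genes tested with a symbol. Its share was 11.8 to 20.0% in the ribosomal protein, DNA replication, FoxO, sterol and other TOP lists.

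Genes of DNA replication moved in both directions. Of 50 tested 21 rose and 13 fell, and with library totals 11 rose and 18 fell (median -0.01 in place of 0.12). Licensing genes gave 8 higher and 3 lower of 13, and genes of the fork and of nucleotide supply 10 higher and 2 lower of 20. With library totals licensing gave 6 higher and 4 lower and the fork group 5 higher and 5 lower. The 6 subunits of the MCM helicase, Mcm2 to Mcm7, all rose, with a median of 0.36 (0.23 with library totals, where 4 rose). Mcm7 had 521, 523 and 526 CPM in the Rapalink-1 libraries, against 342, 371 and 331 CPM in the DMSO libraries (0.59 ± 0.05 SE, adjusted p = 3.22e-14). Cdt1, which loads the helicase, had 224, 229.98 and 250.3 CPM in the Rapalink-1 libraries, against 122, 118 and 139 CPM in the DMSO libraries (0.90 ± 0.06 SE, adjusted p = 2.30e-16). The catalytic polymerase subunit Pold1 changed by 0.63. Of 17 genes of G1 to S control 8 fell and 3 rose, against 9 and 0 with library totals. Cdc25a, the phosphatase that activates CDK2, had 54.8, 53.2 and 57.7 CPM in the Rapalink-1 libraries, against 107, 99.8 and 97.6 CPM in the DMSO libraries (-0.88 ± 0.06 SE, adjusted p = 1.82e-15), and Ccne1, cyclin E1, had 20.7, 23.1 and 21.46 CPM in the Rapalink-1 libraries, against 38.4, 37.3 and 40.48 CPM in the DMSO libraries (-0.83 ± 0.09 SE, adjusted p = 7.94e-10). Both were lower in every Rapalink-1 library. Ccnd1, cyclin D1, was low, at 12.3 ± 1.21 CPM with Rapalink-1 and 17.8 ± 0.255 CPM with DMSO (-0.54, adjusted p = 0.000424). The E2F letters TTTCCCGC were in 8 of 50 windows of the list and in 2.18% of those of all genes tested with a symbol.

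Mitotic and nucleotide genes also leaned higher under TMM scaling. Of 30 mitosis genes 15 rose and 3 fell (median 0.14), led by the kinesin Cenpe at 0.64 and the kinetochore protein Ndc80 at 0.62. Top2a, which untangles DNA, averaged 1380.00 ± 64.1 CPM with Rapalink-1 and 1026 ± 55.8 CPM with DMSO. Of 22 pentose phosphate and nucleotide genes 10 rose and 1 fell (median 0.13). Paics, of purine synthesis, changed by 0.43, transketolase Tkt by 0.41 and Impdh2, which leads to guanine nucleotides, by 0.35. With library totals mitosis gave 10 higher and 9 lower (median 0.00), and the nucleotide group 5 higher and 7 lower (median -0.01). Over all genes tested that scaling gave 1123 higher and 3731 lower, with a median of -0.135. The lean above 0 thus rests on the scaling, while both medians lay above that of all genes with either scaling.

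In the MYC network 8 of 20 rose and 4 fell, and with library totals 4 rose and 9 fell. Mxd4 and Mxi1, which compete with MYC proteins for MAX, changed by 0.94 and 0.42, Mycl, a relative of Mycn, by 0.72, and Mlx by -0.44. The 12 known MYC targets gave 4 higher and 2 lower, with a median of 0.04, or 0 higher and 5 lower with library totals. Tfrc, the transferrin receptor that takes up iron, had the lowest change of these targets. Its values were 165, 157 and 145 CPM in the Rapalink-1 libraries, against 368, 355 and 334 CPM in the DMSO libraries (-1.18 ± 0.05 SE, adjusted p = 6.57e-23), without overlap. Odc1, the first enzyme of polyamine synthesis, averaged 1059 ± 29.3 CPM with Rapalink-1 and 980.3 ± 15.8 CPM with DMSO, a change of 0.11 that passed the test by a small margin (adjusted p = 0.0214), reached -0.03 with library totals and missed it without Rapalink-1 replicate 1 (adjusted p = 0.0806) or 3 (adjusted p = 0.0876). In ribosome biogenesis 11 of 47 rose and 9 fell, against 6 and 21 with library totals, where the first counts lie close to the shares of all genes tested (19.4% and 18.8%), with Pes1 and Npm1 at 0.47 and 0.34 and Rrs1 and Pinx1 at -0.70 and -1.06. Maf1, the repressor of RNA polymerase III, changed by 0.68. Of 11 polyamine genes 2 rose and 5 fell. The decarboxylase Amd1, the other committed step to polyamines, had 69.1, 74.4 and 72.1 CPM in the Rapalink-1 libraries, against 184, 171 and 176 CPM in the DMSO libraries (-1.30 ± 0.06 SE). Its counts ran together with those of the copy Amd2, so reads may have been shared. Azin1, which protects Odc1 from its antizyme, changed by -0.57.

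Energy metabolism changed gene by gene. In glycolysis and HIF targets 10 of 29 rose and 10 fell, against 6 and 12 with library totals. Pfkfb3, which makes the activator of phosphofructokinase, had 4.68, 5.67 and 4.04 CPM in the Rapalink-1 libraries, against 12.8, 12.2 and 13.97 CPM in the DMSO libraries (-1.43) and Egln1, the oxygen sensor of HIF, changed by -0.76, whereas Pfkm and Gpi1 of glycolysis itself changed by 0.47 and 0.42. In nuclear genes of oxidative phosphorylation 13 of 47 rose and 8 fell (median -0.04), while library totals gave 5 higher and 30 lower. Coq10b, a coenzyme Q-binding protein, had 4.44, 5.76 and 4.76 CPM in the Rapalink-1 libraries, against 18.4, 21.00 and 22.7 CPM in the DMSO libraries (-2.04 ± 0.15 SE, adjusted p = 2.11e-15). Ndufaf4, an assembly factor of complex I, had 18.3, 16.9 and 16.8 CPM in the Rapalink-1 libraries, against 40.02, 35.8 and 41.48 CPM in the DMSO libraries (-1.17 ± 0.10 SE, adjusted p = 4.31e-13). Both fell without overlap.

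Of 13 mitochondrially encoded genes 4 fell and 0 rose. The median change was -0.91. The DMSO libraries differed widely here, DMSO replicate 3 being the highest, and mt-Nd5 had 156, 132 and 126 CPM in the Rapalink-1 libraries, against 386, 244 and 501 CPM in the DMSO libraries. The groups did not overlap for mt-Nd5 (-1.44 ± 0.26 SE, adjusted p = 0.00587). Without DMSO replicate 3 the median was -0.35 and 6 genes fell, 7 fell without DMSO replicate 2, and without DMSO replicate 1 or any 1 of the Rapalink-1 replicates 2 fell. These genes took 1.43 ± 0.03% of reads with Rapalink-1 and 1.82 ± 0.42% with DMSO (SD, n = 3 each). The shares of the 2 treatments overlapped, at 1.45% in DMSO replicate 2 and 1.464% in Rapalink-1 replicate 2. DMSO replicate 3 was the highest at 2.269%.

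Several regulators outside these groups moved by more than most genes. Of 13 p53 targets 6 fell and 2 rose, against 18.8% lower and 19.4% higher of all genes tested. Aen, a nuclease that promotes apoptosis, had 33.3, 33.1 and 35.9 CPM in the Rapalink-1 libraries, against 82.6, 79.1 and 67.1 CPM in the DMSO libraries (-1.17 ± 0.08 SE, adjusted p = 7.31e-17), and Tigar, a sugar bisphosphatase, changed by -1.41. In the circadian clock 4 of 15 rose and 6 fell. Nr1d2, the repressor REV-ERB beta, had 107, 111 and 101 CPM in the Rapalink-1 libraries, against 57.52, 45.7 and 50.3 CPM in the DMSO libraries (1.05 ± 0.07 SE, adjusted p = 1.62e-16), while Cry1 and Clock changed by -0.94 and -0.89. Of 19 immediate early and ERK feedback genes 7 rose and 2 fell, with Junb at 0.60 and the phosphatases Dusp6 and Dusp5 at 0.77 and 0.59. Other large falls were Cdr2, a neuronal antigen of cerebellar degeneration, at -1.46, Fbxo33, an F-box protein, at -1.13, Fam118b at -1.12 and Ak4, a mitochondrial adenylate kinase, at -1.07. The low-abundance genes Ankrd9 and Ufsp1 changed by -1.64 and -1.53.

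Genes of cerebellar development and lineage were read against the 19.4% higher and 18.8% lower of all genes tested. In the hedgehog list 1 of 9 tested rose and 1 fell. With library totals 0 rose and 4 fell, and 0 rose without DMSO replicate 1 or without Rapalink-1 replicate 1, 2 or 3. The gene that fell was Smo, the transducer, at 55.8 ± 0.736 CPM with Rapalink-1 and 64.1 ± 3.56 CPM with DMSO (adjusted p = 0.0129), and without DMSO replicate 2 it missed the test (adjusted p = 0.091). In the Notch list the receptors and ligands gave 4 higher and 0 lower of 6, where Notch1 had 10.8, 13.9 and 10.2 CPM in the Rapalink-1 libraries, against 4.31, 6.71 and 6.99 CPM in the DMSO libraries (0.98). Notch2 changed by 0.51 and the ligand Dll1 by 0.50. The targets gave 0 higher and 3 lower of 4, with Hey1 at -1.32 and Hes6 at -0.20. Of 8 progenitor and glial markers tested 2 rose and 0 fell, Pax6 at 71.6 ± 3.28 CPM with Rapalink-1 and 47.6 ± 1.89 CPM with DMSO (0.58) and Vim at 0.48, the second of which is also a TOP gene. Of the 10 markers of neurons and their granule lineage 3 rose and 0 fell, with Otx2, a factor of hindbrain tumours and progenitors, at 89.8 ± 4.99 CPM with Rapalink-1 and 67.47 ± 3.80 CPM with DMSO (0.42) and Neurod1 at 0.23. Neurod1 changed by 0.10 with library totals and did not pass the test then.

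The response to 50 nM Rapalink-1 was set beside that to 5 nM rapamycin, at the same time but at unequal doses, so the comparison is between these treatments. Tested directly, 2213 genes were higher with Rapalink-1 than with rapamycin, or 19.6%, and 2422 were lower, or 21.5%. With library totals these counts were 1056 and 3963, and the list counts between the drugs below were obtained under TMM scaling only. Histones stood out by their sign. Hist1h1d averaged 3854 ± 92.9 CPM with Rapalink-1, 1719.8 ± 39.4 CPM with rapamycin and 1806 ± 47.2 CPM with DMSO (SD, n = 3 each), a difference of 1.16 ± 0.04 between Rapalink-1 and rapamycin on the log2 scale (SE, adjusted p = 8.22e-27). Of 64 histone genes 59 were higher with Rapalink-1 than with rapamycin and 0 lower. Both drugs were compared with the same 3 DMSO libraries, and the histone median against DMSO was 0.59 for Rapalink-1 and -0.14 for rapamycin.

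Ribosomal protein and other TOP RNAs differed in the same direction under TMM scaling. Of 79 ribosomal protein genes 54 were higher with Rapalink-1 than with rapamycin and 1 lower, and of 27 other TOP genes 17 were higher and 3 lower. The shares of reads overlapped for ribosomal proteins, at 11.45 to 11.69% with Rapalink-1 and 11.23 to 11.51% with rapamycin. Those of other TOP genes did not, at 4.955 to 5.017% with Rapalink-1 and 4.33 to 4.374% with rapamycin. Eef2 averaged 5317 ± 83.2 CPM with Rapalink-1, 3886 ± 51.4 CPM with rapamycin and 2915 ± 122 CPM with DMSO, and the 2 drugs differed by 0.45 ± 0.04 (SE, adjusted p = 2.13e-13). Of 42 lysosome and autophagy genes 17 were higher with Rapalink-1 than with rapamycin and 6 lower. Among replication genes Cdt1 averaged 235 ± 13.7 CPM with Rapalink-1, 135 ± 7.89 CPM with rapamycin and 126 ± 10.8 CPM with DMSO (0.80 ± 0.06 SE, adjusted p = 8.41e-15).

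FoxO targets and sterol genes had the same sign of median with both drugs. In the FoxO list the median against DMSO was 0.43 for Rapalink-1 and 0.47 for rapamycin, and 9 of 24 genes were higher and 5 lower with Rapalink-1 than with rapamycin. In the sterol list the median was -0.32 for Rapalink-1 and -0.26 for rapamycin, with 8 genes higher and 12 lower of 32 between the drugs. Ccng2 averaged 40.8 ± 1.497 CPM with Rapalink-1, 23.6 ± 1.47 CPM with rapamycin and 5.53 ± 0.157 CPM with DMSO, a difference of 0.79 ± 0.09 between the drugs (SE, adjusted p = 2.88e-09). Txnip averaged 39.3 ± 1.23 CPM with Rapalink-1, 10.9 ± 1.90 CPM with rapamycin and 7.73 ± 0.657 CPM with DMSO (1.87 ± 0.12 SE, adjusted p = 2.14e-17). Pcdh8 averaged 35.4 ± 2.07 CPM with Rapalink-1, 7.65 ± 1.17 CPM with rapamycin and 3.67 ± 1.31 CPM with DMSO (2.21 ± 0.13 SE, adjusted p = 1.60e-17). For Fbxl20 the difference between the drugs was 0.00 ± 0.10 (SE, adjusted p = 0.986), with 27.49 ± 2.63 CPM with Rapalink-1, 27.6 ± 0.911 CPM with rapamycin and 10.53 ± 0.0684 CPM with DMSO. In the group of insulin receptors and adaptors 0 of 7 were higher and 4 lower with Rapalink-1 than with rapamycin, with Trib3 counted among the 4.

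Some genes moved in opposite directions with the 2 drugs. Ddx6, a helicase of mRNA decay, averaged 44.96 ± 2.01 CPM with Rapalink-1, 126 ± 5.58 CPM with rapamycin and 81.7 ± 5.10 CPM with DMSO and changed by -0.86 with Rapalink-1 and 0.63 with rapamycin against DMSO. Ankrd52, a subunit of a phosphatase that acts on Argonaute, averaged 8.38 ± 1.42 CPM with Rapalink-1, 32.1 ± 4.99 CPM with rapamycin and 15.6 ± 1.19 CPM with DMSO and changed by -0.90 with Rapalink-1 and 1.04 with rapamycin against DMSO. All 4 of these changes passed the test. The acetyltransferase gene Ep300 averaged 11.4 ± 0.821 CPM with Rapalink-1, 32.97 ± 1.90 CPM with rapamycin and 18.48 ± 5.22 CPM with DMSO and the chromatin remodeller gene Srcap 27.2 ± 0.167 CPM with Rapalink-1, 72.6 ± 5.98 CPM with rapamycin and 35.2 ± 4.41 CPM with DMSO. The direct differences between Rapalink-1 and rapamycin were -1.49 for Ddx6, -1.94 for Ankrd52, -1.53 for Ep300 and -1.41 for Srcap, all past the test. Nfkbil1 was the converse case, at 31.8 ± 1.61 CPM with Rapalink-1, 15.7 ± 1.44 CPM with rapamycin and 20.6 ± 0.853 CPM with DMSO (1.03 ± 0.10 SE between the drugs).

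**Figure D5:**
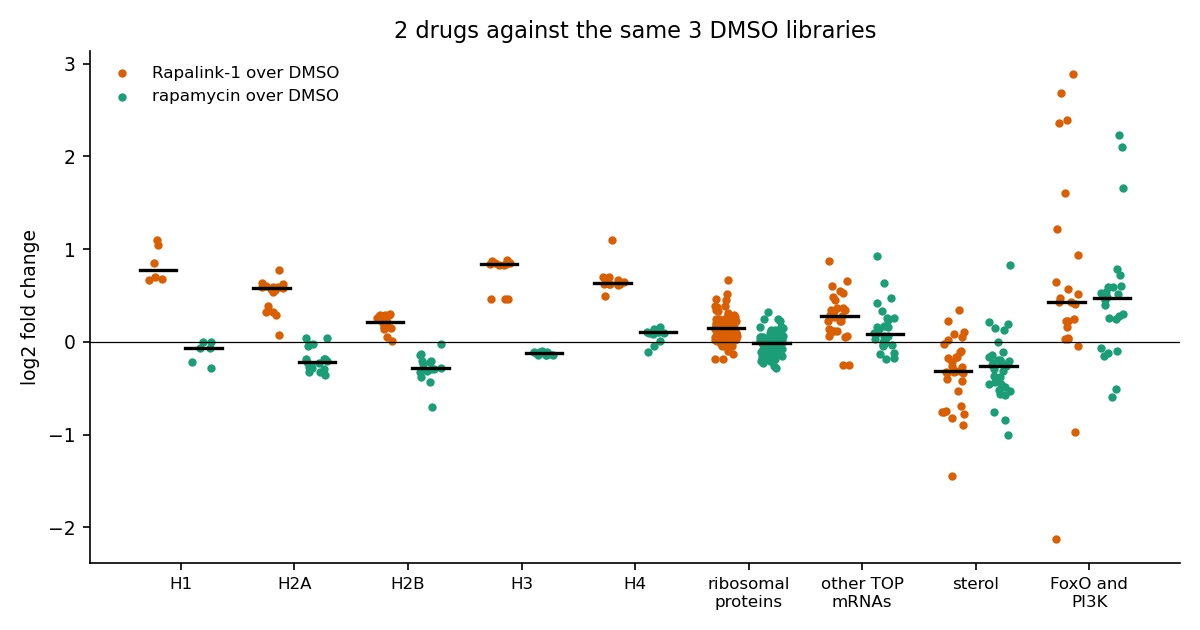
Log2 fold change of each gene against the same 3 DMSO libraries, with Rapalink-1 left and rapamycin right in each pair, for 5 histone types and 4 other groups. Black bars are medians. Histone medians lie between 0.21 and 0.84 with Rapalink-1 and between -0.28 and 0.10 with rapamycin, while the sterol medians are -0.32 and -0.26 and the FoxO medians 0.43 and 0.47.

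The authors' deposited table of the same comparison could be matched for 9787 named genes. The authors' deposited table called 1792 of them higher and 2366 lower, where the fit here called 2084 higher and 2073 lower. Of the genes called in both, 3848 in number, all 3848 had the same sign. The median log2 fold change in the authors' deposited table was lower by 0.0289 per gene.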

How the data were processed

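Per the labels, libraries of total RNA from GTML cells were made with the ARTseq kit. The submitters' processing notes name the mouse build GRCm38. Which aligner, counter and annotation were used is not given in the sources used here. In the main table, with 1 row per transcript, count values are whole-number reads deposited by the authors without normalization. The authors' deposited comparison tables hold mean normalized signal, log2 fold changes with errors, test statistics (a score) and p-values, of which gene names were used throughout and calls and fold changes only where the authors are named.

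The 27382 transcript rows were merged by gene and by equal counts to 15307 features, 9787 of them with a symbol. Where a feature held different counts (62 features) the row with most reads was kept. Symbols come from the authors' deposited tables. Features without a symbol held 1.92 to 2.06% of reads and stayed in the fit. Rows whose counts stayed within 5% of another gene's with a similar symbol were marked uncertain (130 genes). The 11271 genes that passed filterByExpr (minimum count 10) over 9 RNA libraries were fitted with edgeR 4.0.16 (TMM factors, robust glmQLFit, glmQLFTest) in R 4.3.3, with treatment as the only term. Two-sided p-values were adjusted over all genes tested (Benjamini-Hochberg), and a gene with adjusted p under 0.05 was called. A standard error (SE) is the log2 fold change divided by the square root of F, and values after ± without SE are SDs of 3 libraries. Nothing states that replicates were separate cultures, so p-values measure the spread between these samples, which may be technical.

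The comparison and the gene lists were chosen with earlier results of these data known, and lists are described by counts and medians without a test. Genes were named by size (15 largest changes each way at a mean log2 CPM of at least 4 and 5 each way below), as up to 6 members per list with the smallest p, as fixed genes of the pathway, and as the 5 largest differences each way between the drugs. Genes of the first kinds also had no overlap between groups. The CCT, MCM and HSP subsets were picked by name within the lists, so their counts do not describe a whole list. Foxo4, Insr, Pik3ca, Pink1, Fdps, Insig1, Srebf1, Srebf2, Xbp1, Herpud1, Gm20594, the start-window and variant histone genes, and the polyamine and histone groups were chosen after their values were seen. Alternatives covered scaling, count filters, DESeq2 1.42.0, the libraries fitted, merging of rows, a replicate block and each library left out. The method was tested on simulated data. Some genes are not reported here. Promoter windows are from RefSeq (GRCm38.p6). Figures were drawn with matplotlib 3.10.9.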

Additional observations from a re-analysis of the deposited data

How the results depend on the processing

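Under DESeq2 size factors, the DESeq2 Wald test, no low count filter, a fit of only the libraries compared, summed transcript rows and leaving out any 1 library, each count of called genes over all genes tested stayed within 1.5 times of the reported value. Counts of short lists moved more. Mitochondrially encoded genes that fell numbered 7 with the DESeq2 Wald test against 4 reported, and G1 to S genes that rose numbered 1 against 3. The replicate block gave 2087 higher and 2055 lower genes against DMSO. Same-numbered Rapalink-1 and DMSO libraries deviated together at r = 0.0112, -0.116 and 0.023, and not every library correlated best with its own number. No pairing by number was visible, which does not exclude that same-numbered samples were handled together. Library totals in place of TMM gave 1123 higher and 3731 lower genes, 87 and 134 past a log2 change of 1, and 1056 higher and 3963 lower between Rapalink-1 and rapamycin. A minimum count of 50, which tests fewer genes, left 79 higher and 45 lower past a log2 change of 1. Leaving out 1 library gave 1846 to 2191 higher and 1803 to 2089 lower genes, 130 to 157 and 64 to 92 past a log2 change of 1, and 1847 to 1945 higher and 2054 to 2161 lower between the drugs. A fit without histone and mitochondrially encoded rows, chosen after seeing the data, gave 2165 higher and 2100 lower genes. Of 153 genes named, 144 of them called, 5 changed sign with library totals: Fdps (-0.12), Mtor (-0.10), Mycn (-0.12), Odc1 (-0.025) and Rpl14 (-0.12). Of these Odc1 alone had been called with TMM scaling. Fdps, Mycn and Rpl14 were called lower with library totals (adjusted p = 0.0148, 0.0154 and 0.0175). The cause of the sign changes was not tested. Leaving out 1 library changed the sign of 5 uncalled genes, which ranged from -0.0033 to 0.039 for Fdps, from -0.018 to 0.088 for Mtor, from -0.022 to 0.043 for Mycn, from -0.038 to 0.045 for Rpl14 and from -4.18 to 0.34 for Gm20594. Changes of RNA amount shared by most genes are not measured in these data, and genes under a log2 CPM of 3 had a median SE of 0.28, so small changes were not detectable there.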

Other observations

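Some families outside the gene lists, picked by symbol after their values were seen and therefore given without a test, leaned to 1 side. Of 31 ubiquitin-conjugating enzymes of the Ube2 family 18 fell and 2 rose with Rapalink-1 against DMSO, with a median of -0.27 on the log2 scale. Of 42 deubiquitinating Usp peptidases 18 fell and 8 rose. Lower calls also outnumbered higher ones among membrane traffic and import genes, with 10 lower and 1 higher of 19 Arl GTPases, 15 lower and 4 higher of 41 Rab GTPases and 8 lower and 1 higher of 14 Timm import genes. Subunits of the mitochondrial ribosome gave 18 lower and 3 higher of 48 in the large subunit (Mrpl) and 9 lower and 4 higher of 29 in the small subunit (Mrps). In the other direction stood histone demethylases of the Kdm family, with 9 of 17 higher and 0 lower, intraflagellar transport genes (Ift), with 7 of 14 higher and 1 lower, and aldehyde dehydrogenases (Aldh), with 6 of 11 higher and 0 lower. The medians of these 3 were 0.19, 0.27 and 0.25 under TMM scaling, where library totals moved the median of all genes to -0.135. Family counts were not recomputed with library totals, so whether these calls depend on the scaling was not tested. Over all 11271 genes 19.4% rose and 18.8% fell.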
